A study of Homo sapiens with 16 samples.

Results

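The sites described here are 19056 single bases at which N6-methyladenosine (m6A) was listed in both U87 and U87-R cells and no longer listed after treatment with STM2457. They were chosen by position and strand, as bases that stand in the authors' reproducible lists of both untreated lines and are absent from the list of treated cells. The U87 list held 33396 sites, the U87-R list 35207 and the STM2457 list 12791. The untreated lists shared 28016 sites, of which 68.0% were missing under STM2457 and 8960 (32.0%) stayed in all 3 lists and are called kept sites below. Missing sites made up 4.21% of the 452349 bases called in any library. As absence from the STM2457 list chose them, every value from the treated libraries is a description and carries no test.

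U87 MG (here U87) is a long-established glioma cell line of human origin, and U87-R is a line derived from it that resists temozolomide (TMZ), an alkylating drug. U87 received a DMSO control and no TMZ, U87-R received a DMSO control in medium holding 50 µM TMZ, and the third group was U87-R, in that TMZ medium, with 50 µM STM2457 for 96 h. The TMZ in the medium and the resistant line cannot be told apart. There were 3 m6A-eCLIP libraries of U87, 3 of U87-R and 2 of treated U87-R, made by immunoprecipitating fragments of polyA RNA with an m6A antibody and crosslinking them; the 8 input libraries were not analysed here.

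In messenger RNA, m6A is laid down mainly by a nuclear complex of METTL3, the catalytic subunit that STM2457 inhibits, and METTL14, which together favour an adenosine in the DRACH consensus. The mark lies mostly in long internal exons and around stop codons and 3′ untranslated regions, where reader proteins of the YTH family bind it and affect RNA decay and translation. A related mark, m6Am, sits on the first transcribed base when this is an adenosine; another enzyme, PCIF1, makes it, and m6A antibodies bind it too.

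Local sequence could be read for the sites that lie in RefSeq promoter windows, which span 250 bases before to 50 bases after an annotated start (build GRCh38.p14, with the coordinates of hg38). This covered 261 missing and 1341 kept sites, and these are not representative, since windows lie at starts and most missing sites do not. The sequences below show the highest-scoring sites of 3 kinds, each as 21 bases 5′ to 3′ on the strand of the RNA. Capitals mark the listed adenine, the third of the 5 capital letters, and the 2 bases on each side of it.

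The first set shows missing sites that neither treated library listed. They lie at chr11:62672276-62672296 (plus strand, UQCC3, a mitochondrial complex III assembly factor), chr3:66500240-66500260 (minus, LRIG1, a negative regulator of receptor kinases), chr15:75648935-75648955 (plus, SNX33, a sorting nexin), chr19:58558569-58558589 (minus, UBE2M, a NEDD8-conjugating enzyme) and chr5:122077446-122077466 (minus, LOX, lysyl oxidase).
UQCC3: ccctggacTGACTgctttaag
LRIG1: gactcgctGGACTgcggtggg
SNX33: gggagactGGACAgcatctgt
UBE2M: ccggagccGGACTacgggagc
LOX: ccctacaaGTACTctgacgac

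The second set shows missing sites that both treated libraries still scored at 10 or more. They lie at chr11:122655712-122655732 (plus, UBASH3B, a phosphatase), chr2:200864648-200864668 (minus, CLK1, a kinase of splicing factors), chr21:37367460-37367480 (plus, DYRK1A, a dual-specificity kinase) and chr5:87268696-87268716 (plus, RASA1, a GTPase-activating protein of RAS). The sites of UBASH3B and CLK1 are the first base of the annotated gene span.
UBASH3B: aaaattacTCATTgcaaattc
CLK1: tgtcagctCCATTttgttgtt
DYRK1A: ccgaggagAGACTgagcaggc
RASA1: ggggagctGGACTgacagggg

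The third set shows kept sites for comparison. They lie at chr17:76265343-76265363 (plus, UBALD2), chr19:55117627-55117647 (minus, PPP1R12C, a regulatory subunit of myosin phosphatase) and chr20:50192159-50192179 (plus, CEBPB, a bZIP transcription factor).
UBALD2: gaaccacaACATTcgccgggc
PPP1R12C: ggccagcgGCAGTtcccggcg
CEBPB: cgccggcaAAACTttggcact

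In these windows, the consensus surrounded 51.3% of the 261 missing sites and 2.39% of the 1341 kept sites. DRACH was searched as A, G or T, then A or G, then A, then C, then A, C or T, centred on the listed base. Its common form GGACT, which every DRACH count includes, surrounded 19.2% of missing and 0.895% of kept sites. Among all 2202015 adenines of the windows, on the strand of the gene, 7.25% lay in DRACH and 0.474% in GGACT. Anywhere in a window of 300 bases, 97.2% of 35116 windows held DRACH on the strand of the gene and 99.8% on either strand, and 25.3% and 44.2% held GGACT. A match describes the letters around a base and does not show methylation.

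The base before the adenine differed in the other direction. It was a cytosine at 20.7% of missing and 67.6% of kept sites, against 29.9% of all adenines of the windows. The kept sites were mostly start sites, since 1190 of 1341 lay in the first 50 bases after an annotated start, where 0.672% had DRACH. Of 114 missing sites in those first 50 bases, 21.9% had it. In the 250 bases before an annotated start, which can lie inside a transcript that begins upstream, DRACH surrounded 69.7% of 66 missing and 8.42% of 95 kept sites. In windows of a gene on the opposite strand only, it surrounded 77.8% of 81 missing and 28.6% of 56 kept sites. The share with the consensus was thus higher at missing than at kept sites in each of the 3 places. No test was run over sites, which share transcripts and libraries and are not replicates.

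With the 3 places pooled, how far a missing site had left the treated libraries went along with its sequence. DRACH surrounded 79.2% of 96 sites that neither treated library listed, 46.3% of 67 listed in 1 of them, 32.4% of 74 listed in both with a score under 10 in at least 1, and 12.5% of 24 with at least 10 in both. A cytosine before the adenine ran the other way, at 3.12%, 20.9%, 31.1% and 58.3%. The classes also differed in place. Of all missing sites within 50 nt of an annotated 5′ end, only 17 were in neither treated library. A further 34 were in 1, 34 in both with a score under 10 in at least 1, and 14 in both with at least 10. The classes were not split by place, so sequence and place cannot be told apart here.

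**Figure D1:**
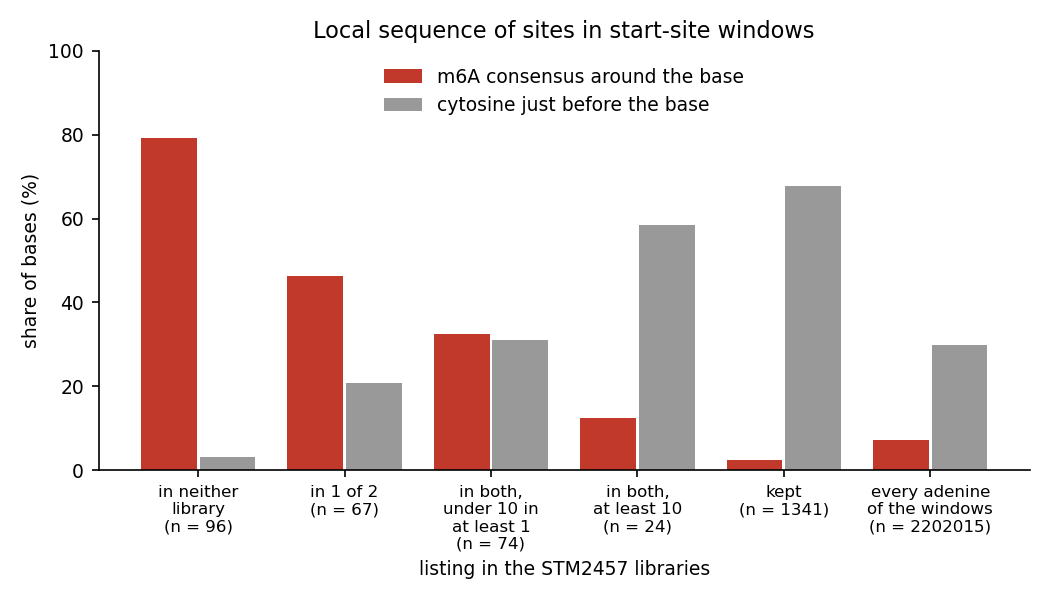
Share of sites (y axis, percent) with the 5-base m6A consensus centred on the site (red) or with a cytosine just before it (grey), for missing sites in 4 classes of listing in the STM2457 libraries, for kept sites and for every adenine of the windows (x axis, with the number of bases). The red bars descend from 79.2% at sites in neither treated library to 2.39% at kept sites, and the grey bars ascend from 3.12% to 67.6%. Places in the windows are pooled, and the classes differ in place.

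The deposited data of a library are called bases, each with the smallest of 4 scores as its value, and sequencing depth is unknown. The untreated libraries held between 149477 and 192697 called bases and the treated ones 105900 and 110875. A score depends on both methylation and RNA abundance, and in these bulk samples fewer cells with an RNA and less of that RNA per cell cannot be told apart. All 9 marker genes of glioma lines looked up, TNC and EGFR among them, had called bases in every library. Of 15 markers of other cell types 8 could be placed on a strand: CD68 and PECAM1 had called bases in every library, while PTPRC, CD14 and MOG had none in any.

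Scores of the missing sites were moderate in both untreated lines and low with STM2457. Their median score was 29.9, 34.3 and 34.7 in the U87 libraries, 40.9, 30.01 and 34.0 in the U87-R libraries, and 7.80 and 8.65 in the treated libraries among the sites these listed at all. The untreated lines overlapped, and both treated libraries lay below all untreated ones. Kept sites scored higher throughout, at 55.9, 60.9 and 60.3 in U87, 72.3, 60.3 and 65.9 in U87-R, against 45.7 and 47.8 under treatment. The combined score of a list is a geometric mean over the libraries that scored at least 10, so lower libraries do not enter it. In the U87-R list it had a median of 34.1 at missing and 64.3 at kept sites, with maxima of 187 and 199. Of the missing sites 73.0% had passed in all 3 libraries of U87 and 74.3% in those of U87-R, and of the kept sites 89.8% and 93.0%.

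Between the untreated lines the scores of the missing sites lay close together, and the choice of sites had a part in this. A site had to stand in both untreated lists, with a score of at least 10 in at least 2 libraries of each line, so bases high in 1 line and absent from the other could not be among them. The values are therefore a description. Over missing sites, the median score per library averaged 32.9 ± 2.67 for U87 and 35.0 ± 5.53 for U87-R (mean and SD of 3 libraries each). The difference was 2.06, less than the SD of either line. Without U87-R replicate 1, the library with the highest median, the difference was -0.92. Base by base, 0 of 19056 missing sites passed between the lines (limma on log2(score + 1), adjusted p under 0.05), beside 1 of all 188742 bases tested (0.00053%). An unadjusted p under 0.05 was found at 483 missing sites (2.53%) and at 20706 of all bases (11.0%). As the rule used these scores, nothing is read from the counts of missing sites. The median U87-R minus U87 difference was 0.06 (log2) over missing sites and 0.05 over all bases tested, and 12.7% of missing sites differed by more than 1 (log2) in either direction. The labels do not say that replicates came from separate cultures, so the p-values of this fit measure only the spread between libraries.

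The missing sites with the smallest adjusted p between the lines (limma, 0.112 to 0.117) lay in CTC-338M12.4, CD40 and RBM23, and are given as a description. The site of CTC-338M12.4 was lower in U87-R, at 13.9, 18.0 and 10.0 against 48.6, 61.9 and 57.6 in U87. Its treated scores were 7.79 and 7.71, and its U87-R minus U87 difference was -1.96 ± 0.31 (log2, SE). In RBM23 the difference was 1.13 ± 0.21. CD40, a receptor of the tumour necrosis factor receptor family, had a site at chr20:46129034 (plus strand) that scored 13.6, 16.2 and 22.0 in the U87 libraries and 53.3, 44.9 and 55.6 in the U87-R libraries, and 14.6 and 16.2 with STM2457. The U87-R libraries of the CD40 site lay above the 5 others, and the U87-R minus U87 difference was 1.54 ± 0.26 (log2, SE).

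**Figure D2:**
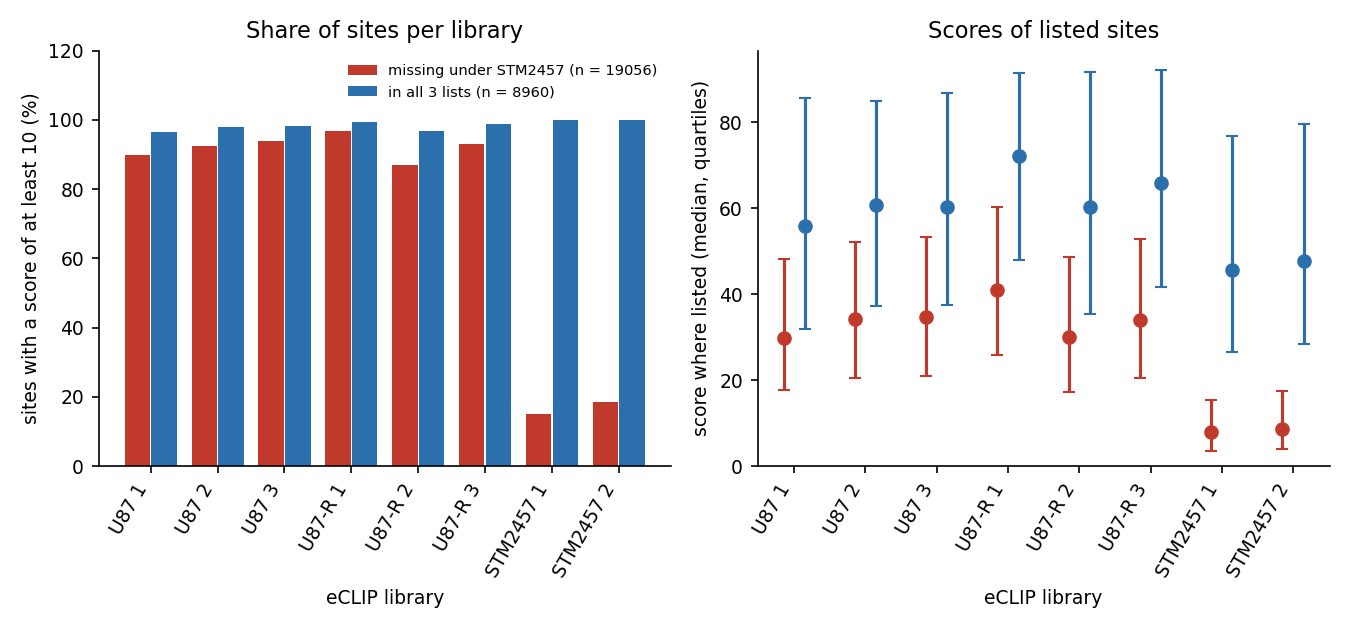
Left, the share of missing (red) and kept (blue) sites with a score of at least 10 in each of the 8 libraries (y axis, percent). Right, their score where listed (y axis, no unit; point, median; bar, lower to upper quartile). Missing sites reach 87.1% to 96.9% in untreated libraries and 15.0% and 18.4% in treated ones, where every kept site reaches 10, as its listing requires.

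The per-library files of the treated cells still listed many of the missing sites. Neither treated library listed 8783 of them (46.1%), and 1 of the 2 listed 5188 (27.2%). A further 3945 (20.7%) stood in both, with a score under 10 in at least 1, and 1140 (5.98%) stood in both with at least 10 in each. Replicate 1 listed 7366 missing sites and replicate 2 listed 7992. A score of at least 10 in either treated library was found at 5227 (27.4%). Where both libraries listed a missing site, the geometric mean of the treated scores was 0.226 of the U87-R score at the median (quartiles 0.121 and 0.368), and it was below the U87-R score at 99.2% of 5085 sites. At kept sites the same ratio had a median of 0.776 and was below 1 at 65.8%. The 2 sides of the ratio are unlike. The treated mean took both libraries, also with scores under 10, while the combined U87-R score left such libraries out. This lowers the ratio at sites where a U87-R library scored under 10.

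The treated list drew on 2 libraries and each untreated list on 3. Every listed site of the 3 lists scored at least 10 in at least 2 libraries, so the requirement asked for both treated libraries but for any 2 of 3 untreated ones. To size this, sites of the U87 list were looked up in pairs of U87-R libraries, which had no part in that list. Both libraries of a U87-R pair scored at least 10 at 76.4%, 80.7% and 73.9% of these sites, and the treated pair did so at 31.3%.

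The lists also followed the peaks. The authors' reproducible peaks are short intervals listed per group, and 99.9% of missing sites lay inside a U87-R peak, 48.1% inside an STM2457 peak. The share inside an STM2457 peak was 41.9% for sites that neither treated library listed, 54.5% for those in 1 library and 67.3% for those in both with a score under 10. It was 0% of the 1140 sites with at least 10 in both, so each of these was missing from the list while lying outside the peaks. The values show the same filter elsewhere: of adenines of known base with at least 10 in both treated libraries, 3575 of 3575 inside a peak were listed and 52 of 2092 (2.49%) outside. At 5102 missing sites (26.8%) neither treated library listed the base and no STM2457 peak covered it.

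Some of the 1140 sites outside treated peaks scored higher with STM2457 than without it. Those named here were picked for the highest treated scores, so their order is a description and was not tested. In PPP1R7, a regulator of protein phosphatase 1, the site at chr2:241150467 (plus strand) scored 65.2, 59.4 and 53.3 in U87, 51.6, 67.0 and 34.6 in U87-R, against 114 and 112 under treatment. In UQCR11, a subunit of mitochondrial complex III, the first base of the gene span (chr19:1605462, minus) scored 61.8, 66.5 and 57.7 in U87, 58.2, 64.8 and 67.1 in U87-R, against 102 and 95.7 under treatment. In both genes the treated libraries lay above all 6 untreated ones. The first base of EPDR1 and a base 7 nt from the start of HNRNPD, a regulator of mRNA decay, also had treated scores above all untreated ones, at 85.7 and 106 and at 83.3 and 83.8. OIP5-AS1, a long noncoding RNA, had the fifth of these sites, with treated scores of 109.98 and 113.

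At the edge of the rule, values on either side were close. Inside STM2457 peaks, missing sites of RAPH1 and CBFA2T2 had 9.998 in treated replicate 1, just under the minimum, and 11.4 and 14.0 in replicate 2, and a site of BTN2A2 had 9.99 and 21.5. Kept sites of GON4L and WNT7B just over the minimum had 10.0 in replicate 1, and 11.9 and 10.2 in replicate 2. WNT7B, which encodes a WNT ligand, had scored from 104 to 118 in the untreated libraries.

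The share missing varied with the untreated score. Of sites with a U87-R score from 10 to 15, 94.6% were missing, and the share went down through 90.8%, 85.6%, 78.5%, 68.8% and 50.6% to 29.2% at 80 or more. The share that neither treated library listed went from 54.8% in the lowest class to 9.35% in the highest. Even so, 1262 of 4321 sites with a U87-R score of at least 80 were missing.

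Missing sites with the highest scores lay in TNC, JUN and DDIT4, and 4 of these 5 bases were in neither treated library. In TNC, which encodes the matrix glycoprotein tenascin-C, the site at chr9:115086127 (minus strand) scored 177, 164 and 163 in the U87 libraries and 182, 200.4 and 179 in the U87-R libraries, and was listed in neither treated library. A second TNC site at chr9:115086189 scored 164, 159 and 160.3 in U87, 171, 189 and 168 in U87-R, and again had no call with STM2457. DDIT4, a stress-induced inhibitor of mTOR signalling, had a site at chr10:72275230 (plus) that scored 164, 159 and 156 in the U87 libraries and 167, 182 and 167 in the U87-R libraries, with none under STM2457. At all 3 bases the U87-R libraries lay above the U87 libraries. The bases were picked for a high U87-R score, so this order is a description and was not tested. All 3 lay inside STM2457 peaks.

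**Figure D3:**
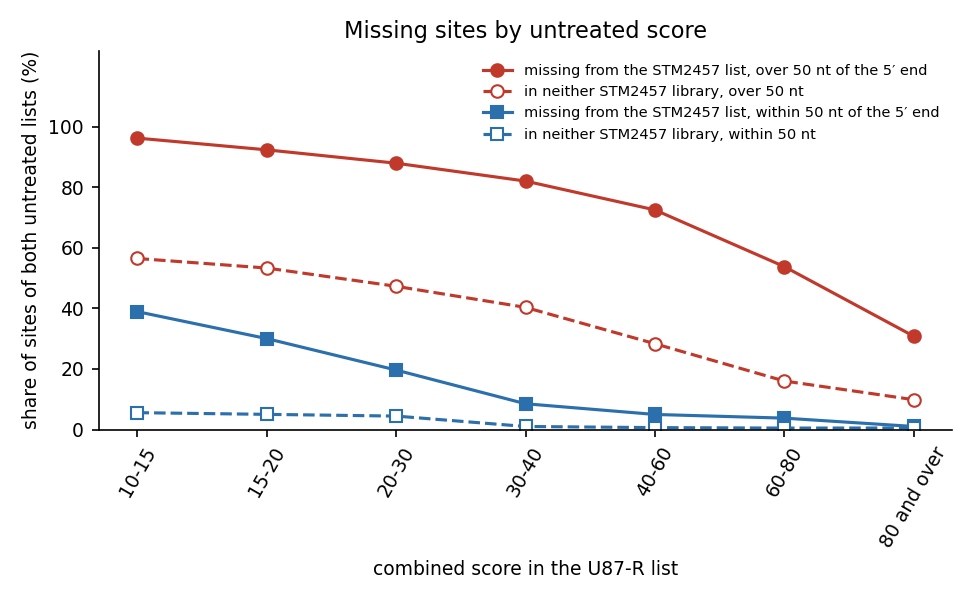
Share of sites of both untreated lists (y axis, percent) that were missing from the STM2457 list (solid) or listed in neither treated library (dashed), by class of combined score in the U87-R list (x axis), for sites at most 50 nt from their gene's annotated 5′ end (blue squares) and farther away (red circles). In the class from 10 to 15, 38.9% of 18 sites near the 5′ end and 96.2% of the others were missing, and at 80 or more 1.01% and 30.8%.

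Position in the gene separated missing from kept sites most at the 5′ end. Of 19056 missing sites, 18269 (95.9%) lay in the span of exactly 1 gene of their strand, in 5465 genes. Within 50 nt of the annotated 5′ end lay 99 missing sites (0.542%) and 1071 of 8547 kept sites (12.5%). The share missing was thus 8.46% of 1170 shared sites there, 59.9% of 764 between 51 and 500 nt, and 71.2% of 24882 beyond 500 nt. Near the 5′ end it was lower in each class of untreated score. Of the 1170 sites, 1.45% were in neither treated library, against 32.8% of 25646 farther away. Exons and untranslated regions were not assigned, because the annotation used here gives gene spans only.

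The missing sites lay farther toward the 3′ end. The median missing site lay at 86.7% of the gene span, counted from the 5′ end, and the median kept site at 76.8%. Without the sites of the first 50 nt, the medians were 86.9% and 83.6%, so most of the gap rested on the 5′ ends. In the last 10% of the span lay 44.5% of missing and 36.0% of kept sites. Within 500 nt of the annotated 3′ end lay 9.44% of missing and 6.48% of kept sites, and within 3000 nt 46.0% and 38.4%. Of the shared sites in the last 500 nt, 75.7% were missing.

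**Figure D4:**
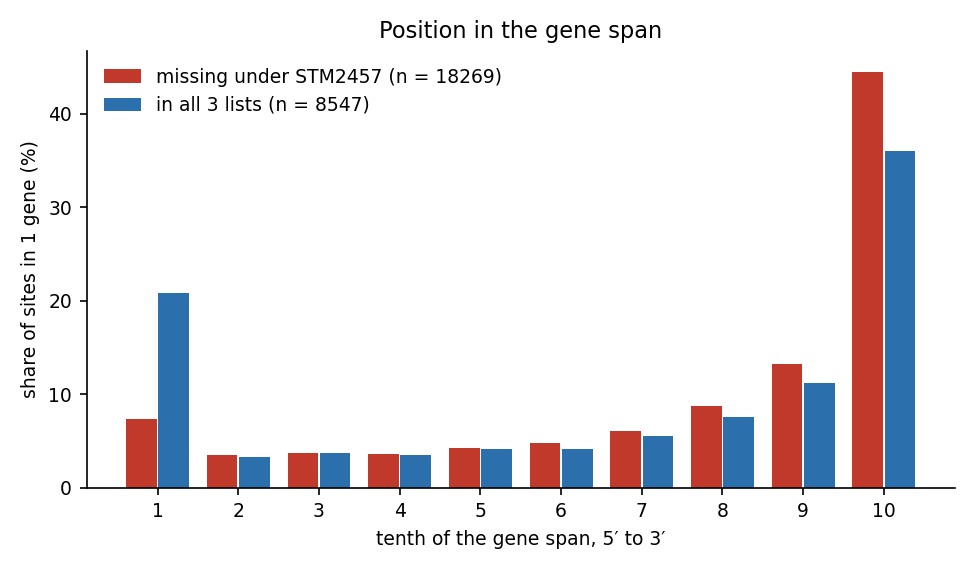
Share of missing (red) and kept (blue) sites that lie in 1 gene (y axis, percent) in each of 10 equal parts of the gene span from the 5′ to the 3′ end (x axis). Missing and kept sites differ most in part 1, with 7.32% and 20.9%, and in part 10, with 44.5% and 36.0%.

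Missing and kept sites were mixed within genes. Of 2033 genes with at least 5 shared sites, 90.7% had both kinds, 9.15% had missing sites alone and 0.197% kept sites alone, with a median of 66.7% missing. Among 587 genes with at least 10 shared sites, 98.3% had both kinds. A missing site had another missing site within 50 nt in 35.0% of cases and a kept site in 14.7%. A kept site had a missing site that near in 29.2% and another kept site in 25.7%. Missing sites outnumbered kept ones, 19056 to 8960, and these shares are not scaled for that. Of 1567 pairs of neighbouring shared sites 1 to 10 nt apart, 41.0% were both missing, 33.1% were split and 25.9% were both kept. Among 5812 pairs 11 to 50 nt apart these shares were 49.6%, 37.5% and 12.9%, so the closest pairs were more often both kept. Neighbouring bases can share reads, so their scores are not independent.

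ITGA3, the integrin alpha 3 subunit that binds laminin, showed both kinds side by side. Of its 17 shared sites 11 were missing, and none of the 11 had a call in either treated library. Their scores summed to 894, 871 and 991 in the U87 libraries and to 1082, 894 and 1102 in the U87-R libraries, and to 0 in both treated libraries, where 0 means that no base was listed. The kept site at chr17:50089918 (plus strand, 563 nt from the 3′ end) scored 127, 132 and 144 in U87, 149, 159 and 156 in U87-R, against 91.1 and 90.4 under treatment. The missing site at chr17:50089923, 558 nt from that end, scored 127, 116 and 124 in the U87 libraries and 133, 139 and 137 in the U87-R libraries. The kept site scored above the missing site in all 3 U87-R libraries, in U87 the scores of the 2 sites overlapped, and the treated libraries listed the kept site alone.

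JUN, a subunit of the AP-1 transcription factor, had 14 missing among 18 shared sites. The missing site at chr1:58781773 (minus strand, 982 nt from the 3′ end) scored 163, 165 and 149 in U87, 183, 179.5 and 165 in U87-R, and had no call with STM2457. The kept site at chr1:58781894, 1103 nt from that end, scored 156, 168 and 160.2 in U87, 159, 180.2 and 163 in U87-R, against 183 and 192 under treatment. Untreated scores of the 2 sites overlapped, while with STM2457 the first was unlisted and the second lay above all untreated libraries. Another missing site at chr1:58781797 scored from 150 to 185 in the untreated libraries and 56.6 in treated replicate 1 alone.

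**Figure D5:**
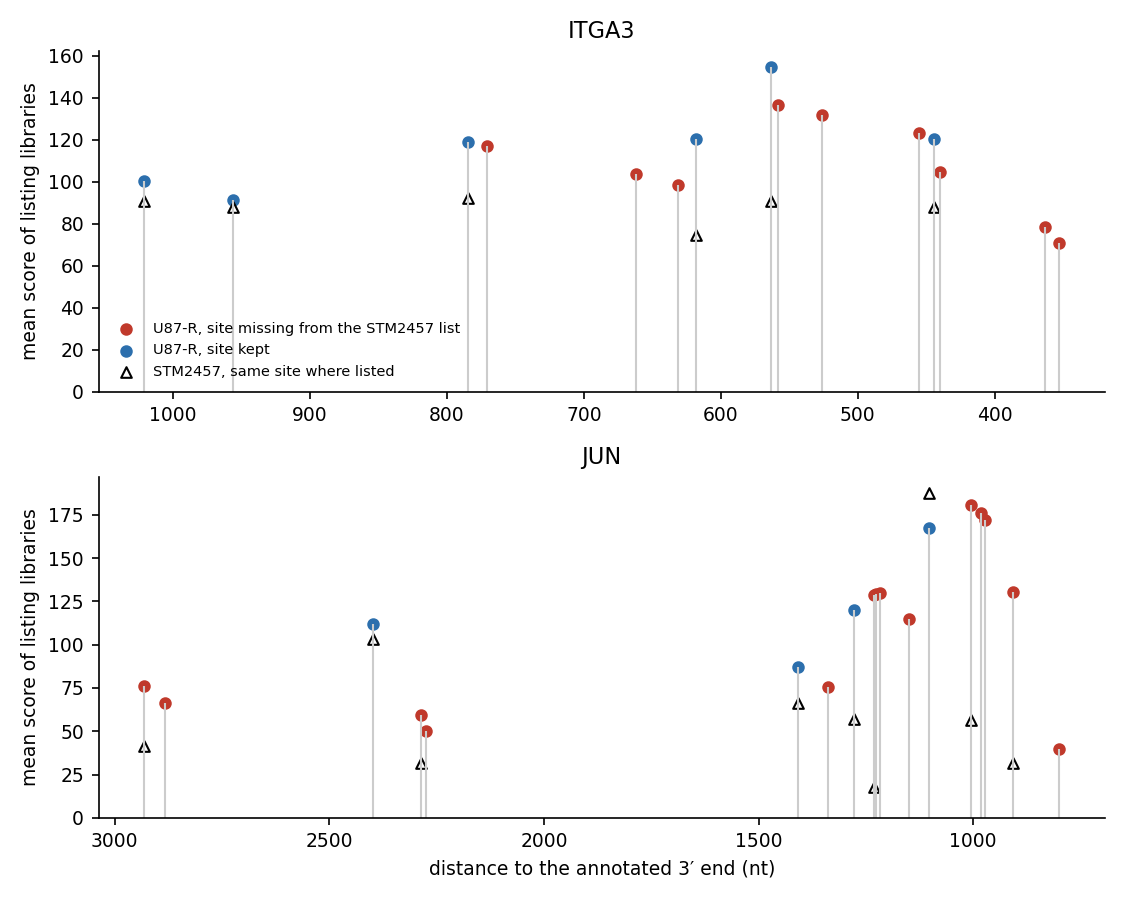
Mean score over the libraries that list a site (y axis, no unit) against the distance to the annotated 3′ end of ITGA3 (top) and JUN (bottom; x axis, nt, 3′ end to the right), in U87-R at missing sites (red) and kept sites (blue), and with STM2457 where listed (open triangles). The 2 missing ITGA3 sites near the 5′ end are left out. Red and blue points overlap in height, and no red point of ITGA3 has a triangle.

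FAT1 and MACF1 held the most missing sites by count, which is not scaled to the shared sites of a gene. Per gene the count ranged from 1 (1664 genes) to 29, with a median of 2, and 225 genes had at least 10. FAT1, an atypical cadherin (chr4:186587794-186726696), had 29 missing of 50 shared sites, whose scores summed to 1091, 1399 and 1153 in U87, 1498, 1394 and 1245 in U87-R, against 109.7 and 161 under treatment. MACF1, a linker of microtubules and actin (chr1:39084167-39487138), had 29 of 43, with sums of 1364, 1739.6 and 1427 in U87, 1679, 1566 and 1377 in U87-R, against 85.5 and 108 under treatment. In both genes the untreated lines overlapped and the treated libraries lay far below. The scaffold protein AHNAK had 26 of 45, with the highest treated sums of the 10 leading genes, 294 and 393. The zinc finger gene ZBTB38 had 25 of 31, the remodelling ATPase SRCAP 23 of 28, TNRC18 23 of 29, and ARID1A, a subunit of the BAF remodelling complex, 22 of 29. C14orf132 had 21 of 28, the insulin receptor substrate IRS1 21 of 35 and the histone H3 methyltransferase KMT2D 21 of 32.

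In 1399 of 7182 genes with sites of the U87-R list, every such site was missing under STM2457. Of the 1399 genes, 727 had at least 2 such sites and 74 at least 5. This depends on the number of sites. All shared sites were missing in 39.0% of genes with at least 1 of them, 9.15% with at least 5 and 1.70% with at least 10. IL31RA, a cytokine receptor chain, led with 15 sites, whose scores summed to 622, 481 and 684 in U87, 687, 349 and 517 in U87-R, against 65.2 and 43.3 under treatment. KIAA1217 had 9 sites with sums of 439, 574 and 488 in U87, 433, 478 and 462 in U87-R, against 8.82 and 31.9 under treatment. Both had overlapping untreated lines and treated sums below them. PPP1R15A, the stress-induced subunit that directs protein phosphatase 1 to eIF2 alpha, had 8 sites, of which 2 were in neither treated library, and treated sums of 43.4 and 111. GREM1, a secreted antagonist of bone morphogenetic proteins, had 8 sites, 6 of them in neither, and treated sums of 17.8 and 18.8. The others were ENTPD4 (14 sites), SPART (10), TTYH3 (9) and ANO8 and the RNA helicase DHX30 (8 each).

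LINC01119, a long noncoding RNA (chr2:46827864-46859006, plus strand), and ANO8, of the anoctamin family of membrane proteins, were those of the 10 genes in which all U87 libraries lay above all U87-R libraries. In LINC01119 the 9 missing sites had sums of 579.9, 530.3 and 560.3 in U87, 196, 289.7 and 282 in U87-R, against 0 and 17.3 under treatment. In ANO8 the 8 sites had sums of 299.9, 261 and 327 in U87, 227, 189.8 and 223 in U87-R, against 29.9 and 6.48 under treatment. No test was run on sums over missing sites.

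Genes of the m6A machinery had missing sites too. Of 142 shared sites in 21 of its genes, 92 (64.8%) were missing, against 68.1% of sites over all genes. The median per gene was 66.7%. It was 75% over all genes with at least 1 shared site and 66.7% over those with at least 5. RBM15B, an adaptor that brings the methyltransferase complex to RNA, had 15 missing of 21 shared sites, with sums of 513, 681 and 558 in U87, 618, 641 and 597 in U87-R, against 116 and 148 under treatment. The reader YTHDF3 had 10 of 16. METTL3 itself had 1 shared site, which was kept and is the first base of its gene span, where m6Am can sit. MAT2A, the enzyme that makes the methyl donor S-adenosylmethionine, had 3 shared sites, all kept. At each of the 3 both treated scores lay above all untreated ones. Its transcript is known to be methylated by another enzyme, METTL16, and whether this bears on these sites was not tested. MGMT, which repairs alkylated guanine, had no shared site.

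Early response and signalling genes lay near the share of all genes. Of 180 shared sites of immediate early and AP-1 genes, 112 (62.2%) were missing, with a median per gene of 62.5%. FOSL2, another AP-1 subunit, had 14 of 20. Of 158 sites of receptor kinase, PI3K and MAPK genes, 109 (69.0%) were missing, with a median of 71.4%. MET, the receptor of hepatocyte growth factor, had 13 of 15, with sums of 429, 538 and 466 in U87, 577, 518 and 500.4 in U87-R, against 44.7 and 45.0 under treatment. Its untreated lines overlapped. EGFR had 7 of 13, and SPRY4, a feedback inhibitor of receptor kinases, 10 of 12.

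Among chromatin regulators 219 of 323 shared sites (67.8%) were missing, with a median per gene of 67.9%, beside 68.1% of sites over all genes. The gene lists were not matched for untreated score or position, with which the share missing varied, so their shares are a description. In matrix and mesenchymal genes it was 85 of 145 (58.6%, median 58.6%), with ITGA3 and the repressor ZEB2 (9 of 14) in the lead. Stem factors and cytokines had 28 of 50 (56.0%, median 61.8%). There the receptor NOTCH2 had 7 of 11, and LIF, a cytokine that sustains stem cells, 6 of 10.

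DNA repair genes had few shared sites, 34 in 9 of the 26 genes listed. Of these sites 19 (55.9%, median 50%) were missing, in 5 genes, beside 68.1% of sites over all genes. TP53BP1, a factor of double-strand break repair, had 9 of 9, with sums of 269, 193 and 247 in U87, 329.5, 296 and 283 in U87-R, against 16.5 and 12.2 under treatment. The U87-R libraries lay above the U87 libraries, and this was not tested. MSH6, a mismatch repair protein, had 6 of 12, with sums of 225, 252 and 235 in U87, 305, 265 and 327 in U87-R, against 26.7 and 0 under treatment. Here too the U87-R libraries lay above the U87 libraries, which was not tested.

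Long noncoding RNAs on the list had 41 of 76 shared sites missing (53.9%, median 50%), beside 68.1% over all genes. TUG1 had 16 of 33, NEAT1, the scaffold of paraspeckles, 7 of 10, and MALAT1, a nuclear speckle RNA, 4 of 8. By the gene type of the RefSeq table, which counts TUG1 as protein-coding, the share was 73.2% of 571 sites in long noncoding genes and 68.0% of 26245 in protein-coding genes. Housekeeping and ribosomal protein genes had 18 of 22 (81.8%, median 75%) in 6 genes. RPL13, a ribosomal protein gene with near-identical processed copies that could share its reads, had 6 of 6. Their scores summed to 413, 207 and 359 in U87, 375, 157 and 367 in U87-R, against 0 and 0.0702 under treatment. The replicate 2 libraries were the lowest of both untreated groups. EEF2, an elongation factor of translation, had 5 of 6.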

How the data were processed

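The build was hg38 and the tools cutadapt, STAR and UMI-tools, per the submitters' processing notes. Versions, callers and the filters of the lists are not stated there. For each library the authors deposited a score per called base, and for each group a list of sites and of peaks with a combined score and the fraction of libraries that passed.

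The sites and gene lists were chosen with earlier results of these data known. The base named is the end coordinate of each 1-base interval, at which every listed site with a known letter is an A. Gene spans were taken from a RefSeq table (GRCh38.p14). Strands came from the RefSeq promoter table (27304 genes) or, for 1790 genes, from at least 5 called bases with 80% on 1 strand. Protein-coding genes were served before long noncoding ones. Promoter windows were matched by position and strand.

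U87-R was compared with U87 by limma 3.58.1 (R 4.3.3) with a trend on log2(score + 1), unlisted bases at 0, over bases that at least 2 libraries of any group called, with 3 group means and Benjamini-Hochberg adjustment. The fit was tested on simulated data. Because the sites had to be listed in both lines, their own values in it are descriptions. Named genes were the 10 with most missing sites, the 10 with most among genes whose U87-R sites were all missing, the 2 with most per list (9 lists), and METTL3, MGMT, MALAT1, EGFR and MAT2A. Named bases were those with the highest or lowest scores, those nearest the score minimum, and those with the smallest adjusted p. Alternatives covered the pseudocount, filter, centring, replicate number, single libraries, tolerances and strands.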

Additional observations from a re-analysis of the deposited data

How the results depend on the processing

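The number of missing sites was 19019 when no treated site was allowed within 2 nt. Between U87-R and U87 the count of missing sites called stayed at 0 with a pseudocount of 10, without the filter, with each library centred and with the replicate number as a block. Leaving out 1 library gave counts from 0 to 7: 2 without each of U87 replicates 1, 2 and 3, and 7 without U87-R replicate 2. Over all bases the count of 1 moved far more, to 3531 (2.03%), 3793 (2.20%) and 1469 (0.865%) without U87 replicates 1, 2 and 3, to 0, 5374 (3.07%) and 1772 (1.04%) without those of U87-R, and to 7 without either treated library. These fits also changed the base filter. The count over all bases was 13 with a pseudocount of 10, and 0 without the filter or with the block. The difference of median scores ran from -0.92 (without U87-R replicate 1, where it reversed) to 4.56 over left-out libraries, and was 2.06 with the replicate block. Same-numbered libraries of the lines deviated with correlations of 0.0285, 0.0880 and 0.0268, and differently numbered ones with -0.0556 to 0.0299. Whether equal numbers mark a shared preparation is not stated in the labels and was not tested. The median STM2457 minus U87-R difference at missing sites, -3.89 (log2), was -1.69 with a pseudocount of 10 and -3.51 with centring. The share in neither treated library, 46.1%, was 43.6% allowing 2 nt, 72.6% counting scores of at least 10, and 58.1% to 61.3% with 1 treated library. The share near the 5′ end was 0.794% within 100 nt. The share inside a treated peak was 54.4% within 25 nt of one and 21.2% for peaks in the upper part (above the median) of the deposited score. Depth is unknown, so an unlisted base cannot be told apart from a weakly covered one.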
